A study of Mus musculus with 24 samples.

Results

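The 26 genes described here make, store, sense and remove GABA, the main inhibitory transmitter of the brain. They were chosen by name, as the genes for GABA receptors, synthesis, transport and breakdown together with their scaffolds and the chloride transporters that set the GABA response, and all 26 were found among the 51826 gene identifiers of the count table. RNA of the dorsal hippocampus, a region needed for spatial and contextual memory, was sequenced from C57BL/6j mice labelled male and aged 2 to 4 months. The mice were WT or CBP KIX/KIX, which carry point mutations in the KIX domain of CREB-binding protein (CBP, encoded by Crebbp) in every cell that prevent binding of phospho-CREB, and the study asked which transcripts depend on this domain after learning. In RNA-Seq 1, which used total RNA after ribosomal depletion, 3 WT and 3 CBP KIX/KIX mice had been trained in the Morris water maze (MWM) and 3 WT mice stayed in the homecage. In RNA-Seq 2, which used polyA-selected RNA, 4 WT and 4 CBP KIX/KIX mice had undergone contextual fear conditioning (CFC), and 3 WT and 4 CBP KIX/KIX mice stayed in the homecage. No RNA-Seq 1 library was from a CBP KIX/KIX homecage mouse.

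GABA is made from glutamate by glutamic acid decarboxylase, loaded into vesicles and released onto GABA-A receptors, which are chloride channels of 5 subunits, and GABA-B receptors, which act through G proteins. Glial and neuronal transporters take it up, and mitochondrial enzymes break it down to succinate. In the hippocampus the receptors are mostly on pyramidal and granule cells, whereas synthesis and vesicle loading belong to the scattered inhibitory interneurons. Tissue RNA therefore mixes both, and fewer cells of a type cannot be told apart from less RNA per cell.

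RNA-Seq 1 libraries held 38174044 to 65709282 counts each, and those of RNA-Seq 2 held 15385836 to 46056290. In RNA-Seq 2 every library numbered 1 or 2 held 30143949 counts or more. Every library numbered 3 or 4 held 20568337 or fewer, and WT homecage had no library 4. No main fit had replicate number or this split in depth as a term. Levels are given as CPM (reads of a gene scaled to the library size) on upper-quartile scaled library sizes, and levels of different genes are compared only as CPM per kb of exon. Summed markers of inhibitory interneurons ran from 992 to 1256 CPM in RNA-Seq 1 and from 806 to 940 CPM in RNA-Seq 2, and those of CA1 pyramidal cells from 617 to 1139 CPM and from 201 to 361 CPM. The sum of 7 choroid plexus markers, from a tissue that touches the hippocampus in dissection, ran from 142 to 2916 CPM in RNA-Seq 1 and from 27.3 to 4127 CPM in RNA-Seq 2.

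The highest member per kb of exon was Gabbr1, the GABA-B subunit that binds GABA, at 85.3 ± 3.37 CPM per kb (SD, n = 3) in the RNA-Seq 2 WT homecage libraries. Slc12a5, the neuronal chloride exporter KCC2, followed at 76.7 ± 5.98 CPM per kb, and their ranges overlapped. Next was Gabra5, the GABA-A alpha subunit typical of hippocampal pyramidal cells, at 64.3 ± 1.08 CPM per kb, whose range was apart from its neighbours in the order. Gabbr2, the GABA-B subunit that couples to the G protein, Gad1, the decarboxylase isoform for bulk GABA, and Nlgn2, the adhesion protein of inhibitory synapses, lay between 42.7 and 46.7 CPM per kb, each overlapping the next. Abat, the GABA transaminase that starts breakdown, stood alone at 32.3 ± 1.09 CPM per kb.

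The middle of the order held Slc6a11, the astrocytic GABA transporter GAT3, at 25.9 ± 2.10 CPM per kb, Gad2, the synaptic decarboxylase isoform, at 24.6 ± 1.86, Slc32a1, the vesicular GABA transporter, at 21.5 ± 3.44, Gphn, the receptor scaffold gephyrin, at 20.7 ± 0.779, and Lhfpl4, the receptor partner also called GARLH4, at 20.2 ± 1.10 CPM per kb. Among these 5 each range overlapped the next. The alpha subunits Gabra3, Gabra4 and Gabra2 were at 18.4, 15.99 and 12.2 CPM per kb, and Aldh5a1, which oxidises succinic semialdehyde, at 17.1. Gabrb1 was at 10.8 and Gabrb2 at 5.17 CPM per kb. Gabrd, the delta subunit of extrasynaptic receptors on dentate granule cells, was at 7.84, and Slc12a2, the chloride importer NKCC1, at 5.68 CPM per kb.

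The lowest detected members were Gabrg1 at 2.47, Gabrg3 at 1.48, Gabrq at 0.148 and Gabre at 0.0511 CPM per kb. Gabra6, the alpha subunit known from cerebellar granule cells, had 0 to 9 counts per library in the WT homecage libraries of RNA-Seq 1 and 0 to 2 in those of RNA-Seq 2. It was the member left out of every test for low counts, so that 25 of 26 members were tested, and 24 in the comparisons within RNA-Seq 1, where Gabre was also left out. A count of 0 allows up to 3 counts, or between 0.0537 and 0.174 CPM depending on the library, for counting error only.

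**Figure D1:**
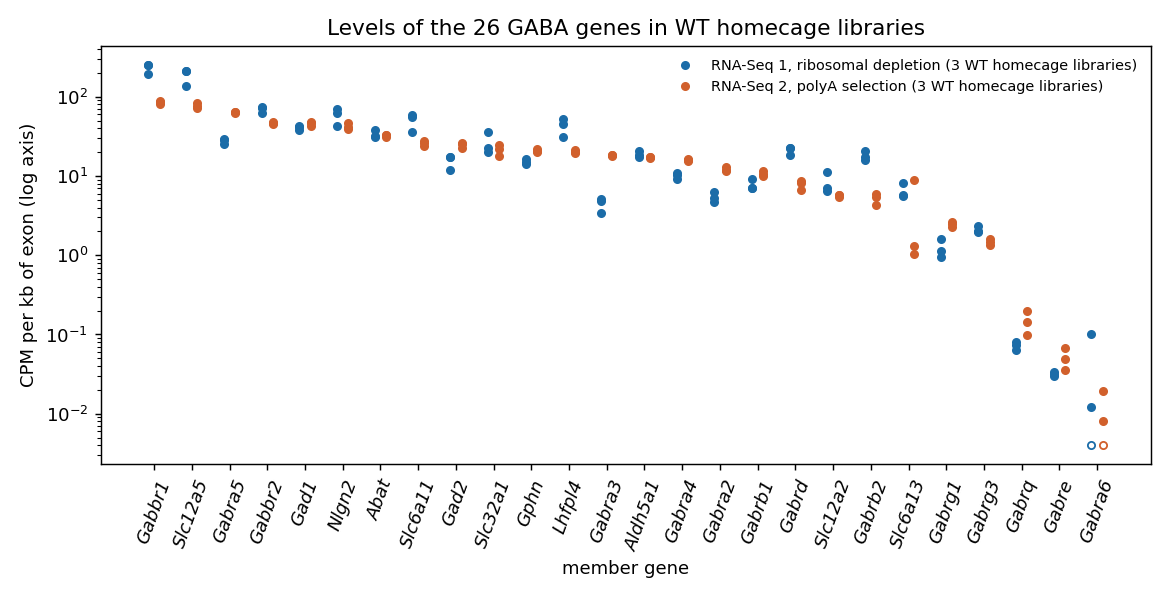
CPM per kb of exon (log axis) of each member in the 3 WT homecage libraries of RNA-Seq 1 and of RNA-Seq 2, with members ordered by their RNA-Seq 2 mean and open points at the lower edge for libraries at 0. Gabbr1 and Slc12a5 lead in both datasets, and Gabrq, Gabre and Gabra6 lie below all other members.

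Many of the receptor subunits sit in clusters, as GENCODE M21 on GRCm38 places them. Gabrg1 (chromosome 5, 70751047 to 70842617), Gabra2 (70957597 to 71095849), Gabra4 (71569749 to 71658308) and Gabrb1 (71658113 to 72149037) follow one another on chromosome 5. Gabrg3 (56716465 to 57387188) and Gabra5 (57407672 to 57510059) are neighbours on chromosome 7, Gabra6 (42306437 to 42321072) and Gabrb2 (42419757 to 42629028) on chromosome 11, and Gabre, Gabra3 and Gabrq on chromosome X. Neighbours differed in level, as with Gabrg1 at 2.47 and Gabra2 at 12.2 CPM per kb in the RNA-Seq 2 WT homecage libraries. The first exons of Gabra4 and Gabrb1 overlap on opposite strands, and exons of Gabra5, Slc32a1, Gphn and Aldh5a1 overlap noncoding genes on the opposite strand. The strand setting of the counting is not given in the sources used here, so reads of such pairs may not be separable.

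Because CREB binds the cAMP response element (CRE) and CBP is its coactivator, the RefSeq promoters of the members (GRCm38.p6, 250 bases before to 50 bases after each start) were searched on both strands for the full palindrome TGACGTCA and for the shorter core TGACG, which the full one contains. The table matched 23 of 26 members with 30 promoters, and Abat, Gabrd and Slc12a2 had no entry. The full element was in 0 of the 30 promoters and in 1.79% of all 32851 promoters. The core was in 4 of the 30, or 13.3%, and in 20.8% of all promoters. The 250 bases before the start are shown for Gad2 and Aldh5a1, as examples with a core (in capitals, read on the opposite strand as CGTCA), and for Lhfpl4, the member called after learning in WT mice, which has none. The other members with a core were Gabrb2 and Nlgn2. A match is a string of letters and not a measured binding site.
Gad2 (chr2:22622077-22622326, + strand): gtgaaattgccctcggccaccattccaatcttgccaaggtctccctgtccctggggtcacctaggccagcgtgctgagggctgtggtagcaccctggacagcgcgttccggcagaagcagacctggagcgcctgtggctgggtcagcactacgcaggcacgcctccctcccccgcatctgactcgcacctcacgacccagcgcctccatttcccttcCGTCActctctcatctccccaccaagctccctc
Aldh5a1 (chr13:24937662-24937911, - strand): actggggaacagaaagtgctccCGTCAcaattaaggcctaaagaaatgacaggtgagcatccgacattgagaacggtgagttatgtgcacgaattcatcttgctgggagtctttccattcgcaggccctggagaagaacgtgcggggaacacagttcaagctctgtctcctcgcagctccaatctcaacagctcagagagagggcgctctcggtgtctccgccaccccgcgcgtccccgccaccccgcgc
Lhfpl4 (chr6:113195385-113195634, - strand): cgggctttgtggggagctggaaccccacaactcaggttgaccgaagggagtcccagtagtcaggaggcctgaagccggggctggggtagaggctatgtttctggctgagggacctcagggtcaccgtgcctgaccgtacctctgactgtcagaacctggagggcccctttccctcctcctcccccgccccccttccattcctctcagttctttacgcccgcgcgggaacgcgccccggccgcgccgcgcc

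After learning, CBP KIX/KIX mice had less Abat RNA than WT mice, and Abat was the 1 member of 25 that passed the test. Abat is the mitochondrial enzyme that converts GABA to succinic semialdehyde. In the MWM mice its level was 264, 228 and 277 CPM in WT libraries and 220, 250 and 213 CPM in CBP KIX/KIX libraries. In the CFC mice it was 255, 278, 257 and 237 CPM in WT and 238, 205, 231 and 230 CPM in CBP KIX/KIX libraries. The CBP KIX/KIX mean was lower in both paradigms, and the ranges overlapped in both, in CFC by the highest CBP KIX/KIX and the lowest WT library. The log2 fold change was -0.17 ± 0.026 (SE; edgeR quasi-likelihood test with 4 RUVr factors of unwanted variation, adjusted p = 0.0036). In this comparison 2.41% of the 21489 genes tested passed, and 1.48% passed as lower.

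The Abat difference had the same sign in each dataset and passed in neither alone. The log2 fold change was -0.17 ± 0.11 after the MWM (edgeR, adjusted p = 0.808) and -0.18 ± 0.057 after CFC (adjusted p = 1). With GC normalization these were -0.09 ± 0.084 (edgeR, adjusted p = 0.851) and -0.18 ± 0.063 (adjusted p = 1). The difference between the paradigms was 0.01 ± 0.11 (adjusted p = 1). Without RUVr factors it was again -0.17, with a wider error of 0.053 and an adjusted p of 0.3 by the edgeR test, under which 0.0233% of genes passed at adjusted p and 9.89% at unadjusted p under 0.05. Of the 25 members 1 was then under that unadjusted threshold, as lower. In homecage mice Abat was at 255, 255 and 241 CPM in WT and at 219, 247, 236 and 235 CPM in CBP KIX/KIX libraries, a log2 difference of -0.10 ± 0.056 (adjusted p = 0.82 by edgeR). The genotype difference after CFC and that in homecage differed by -0.08 ± 0.083 (adjusted p = 0.95 by edgeR). Abat lies on chromosome 16 (8513429 to 8621568), 4.3 Mb from Crebbp, the gene that carries the mutations. Within 5 Mb of Crebbp, a window that takes in Abat, 59 genes were tested and 4 passed after learning, or 6.78%, beside 2.41% of all genes. Abat is itself 1 of the 4, so this share is not separate evidence on Abat. The 4 genes were Abat, Ppl, Rbfox1 and Ubn1, 3 of them lower and 1 higher in CBP KIX/KIX mice. The part of linked sequence in the Abat result was not tested.

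**Figure D2:**
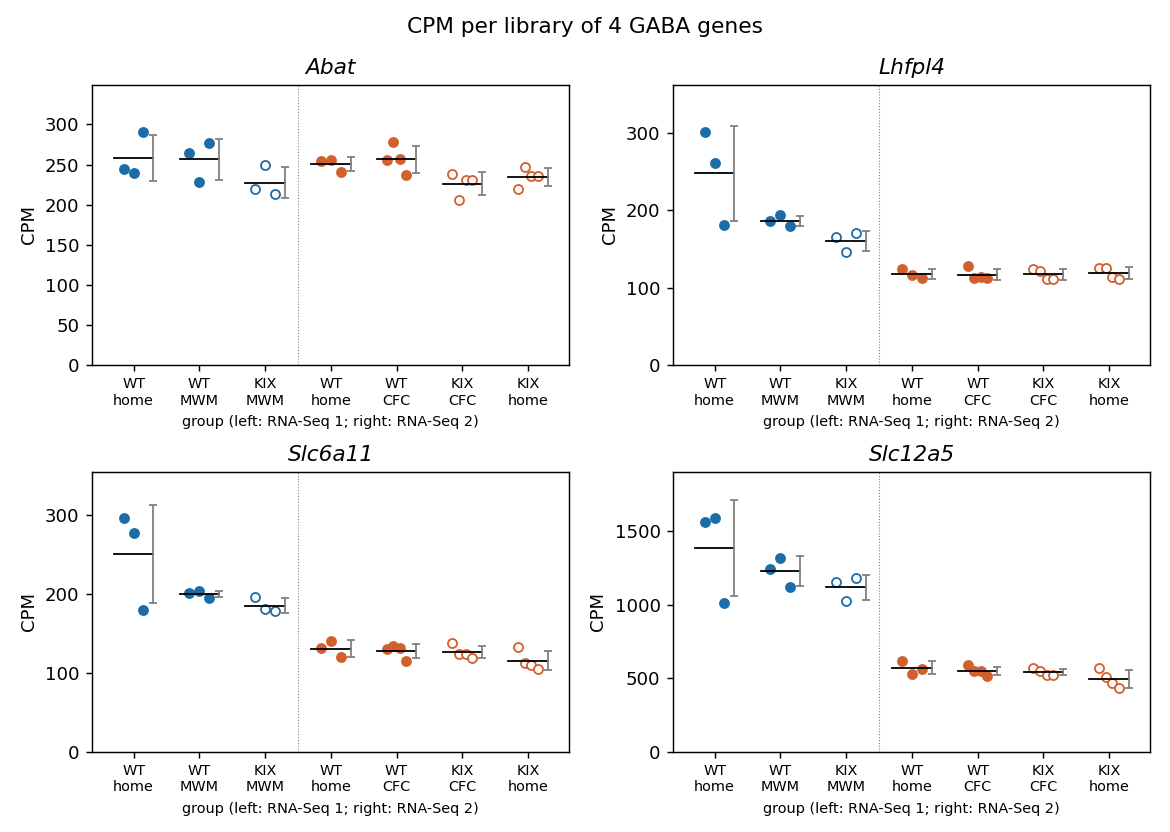
CPM in each library of Abat, Lhfpl4, Slc6a11 and Slc12a5, by group (filled points WT, open points CBP KIX/KIX, black line the group mean, grey bar its SD), RNA-Seq 1 left and RNA-Seq 2 right of the dotted line. Abat is lower on average in CBP KIX/KIX groups, and WT homecage library 3 of RNA-Seq 1 lies below the other 2 in Lhfpl4, Slc6a11 and Slc12a5.

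The other members named for this comparison were the 3 with the lowest p in each direction. After Abat, the lowest p among lower members were those of Lhfpl4 and Nlgn2, both partners of receptors at inhibitory synapses. Lhfpl4 differed by -0.09 ± 0.026 (adjusted p = 0.0845 by edgeR) and Nlgn2 by -0.08 ± 0.028 (adjusted p = 0.119). Lhfpl4 was at 186, 194 and 180 CPM in WT and 166, 146 and 171 CPM in CBP KIX/KIX libraries after the MWM, where the ranges did not overlap. After CFC it was at 128, 113, 114 and 113 CPM in WT and 124, 121, 111 and 112 CPM in CBP KIX/KIX libraries, where they overlapped. The lowest p among higher members were those of Gabra4, at 0.10 ± 0.037 (adjusted p = 0.167), Gabra2, at 0.14 ± 0.062 (adjusted p = 0.221), and Gabrq, at 0.41 ± 0.25 (adjusted p = 0.391), all by edgeR. Gabra4, an alpha subunit of extrasynaptic receptors, was at 56.5, 66.2 and 63.8 CPM in WT and 76.3, 72.5 and 71.1 CPM in CBP KIX/KIX libraries after the MWM, with no overlap. After CFC its ranges overlapped, and the difference was -0.01 ± 0.072 (edgeR, adjusted p = 1).

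At an unadjusted p under 0.05, 7 of 25 members passed, 2 higher and 5 lower, beside 18.7% of all genes. The median log2 fold change of the members was 0.01 and that of all genes -0.01. Synthesis and vesicle loading showed no call: Gad1 differed by -0.05 ± 0.026, Gad2 by 0.03 ± 0.038 and Slc32a1 by -0.04 ± 0.050. Of the GABA-B subunits, Gabbr1 differed by -0.06 ± 0.026 and Gabbr2 by -0.04 ± 0.029. Aldh5a1, which acts after Abat in the same pathway, differed by 0.01 ± 0.027. Of 15 interneuron markers, 1 passed as lower (Lhx6), 7 were lower and 0 higher at an unadjusted p under 0.05, and their median was -0.07. Of 5 dentate granule cell markers, 4 were higher at an unadjusted p under 0.05, 1 passed (Stxbp6), and their median was 0.20. The 3 CA1 pyramidal cell markers were lower at an unadjusted p under 0.05, 1 passed (Fibcd1), and their median was -0.20. Of 7 astrocyte markers, 1 passed as higher and 2 as lower (Aldh1l1, Gja1 and Gfap), and their median was 0.04. Of 3 CA3 pyramidal cell markers, 1 passed as higher (Iyd). No astrocyte or CA3 marker passed without RUVr factors. After the MWM the summed dentate granule cell markers were 308 to 328 CPM in WT and 334 to 440 CPM in CBP KIX/KIX libraries, and the CA1 sum was 826 to 995 CPM in WT and 704 to 767 CPM in CBP KIX/KIX libraries, neither with overlap. Without RUVr factors Lhx6 (adjusted p = 0.248 by edgeR), Stxbp6 (adjusted p = 0.211) and Fibcd1 (adjusted p = 0.165) did not pass. The part of these markers in the members' values, Gabra4 and Lhfpl4 after the MWM included, was not tested.

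GC content of the transcript moved with these differences. Over the 25 members the log2 fold change after learning and the GC content had a Spearman rho of -0.51, and over 21431 genes of -0.22, as a description across genes that share the same libraries. The 14 members under 50% GC had a median of 0.03 and the 11 at or above it of -0.06. With GC normalization Abat differed by -0.16 ± 0.026 (adjusted p = 0.0122 by edgeR). Of the other members named, Lhfpl4 then differed by -0.03 (adjusted p = 0.651), Nlgn2 by -0.05 (adjusted p = 0.414), Gabra4 by 0.05 (adjusted p = 0.543), Gabra2 by 0.06 (adjusted p = 0.689) and Gabrq by 0.44 (adjusted p = 0.429), all by edgeR.

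**Figure D3:**
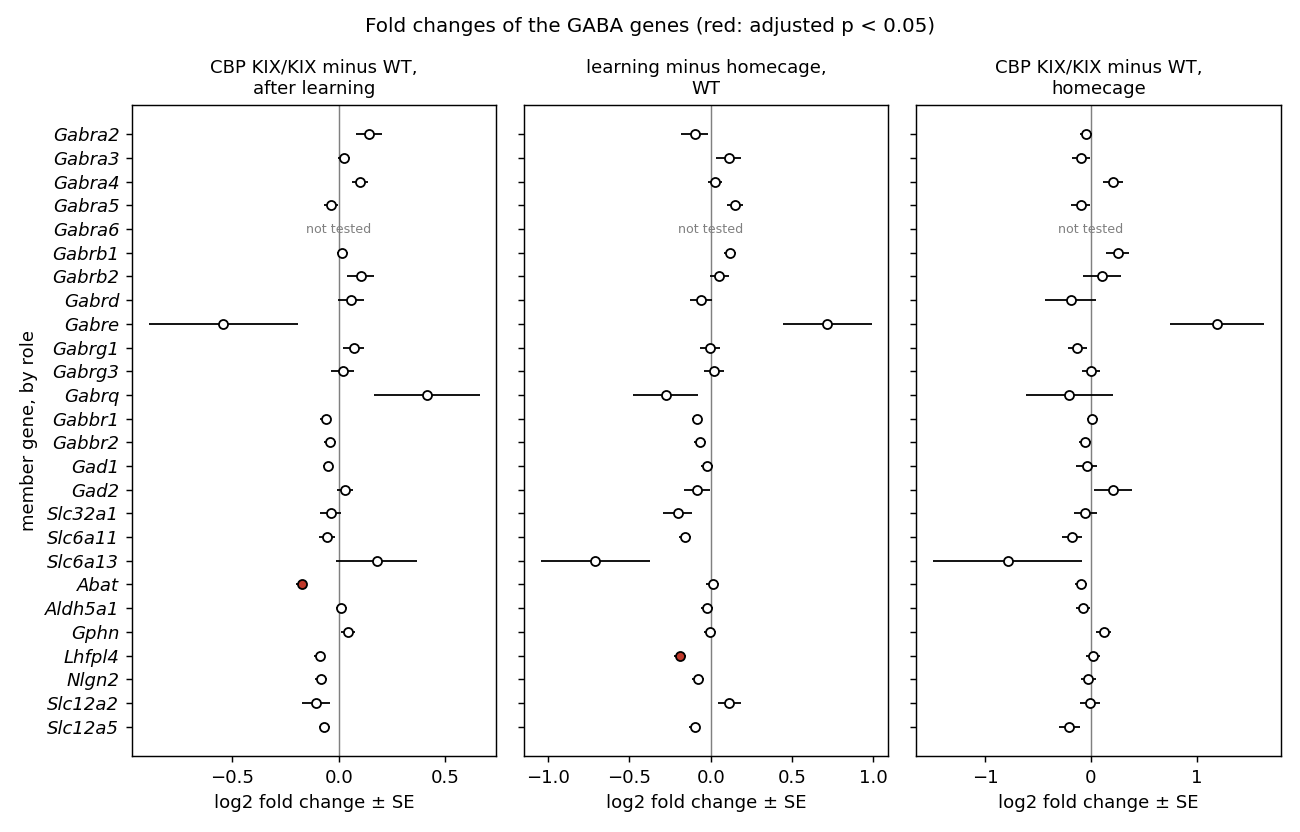
Log2 fold changes with their SE for all members, by role, in CBP KIX/KIX against WT mice after learning, in learning against homecage WT mice, and in CBP KIX/KIX against WT homecage mice (each panel has its own scale, red for adjusted p under 0.05). Abat in the first panel and Lhfpl4 in the second are the 2 red points, and the wide bars belong to the low genes Gabre, Gabrq and Slc6a13.

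In WT mice, Lhfpl4 was the 1 member of 25 that passed the test of learning against homecage, and it was lower after learning. Lhfpl4 binds the gamma subunit of GABA-A receptors and holds them with Nlgn2 at synapses on pyramidal cells. In RNA-Seq 1 it was at 302, 261 and 181 CPM in the homecage libraries and at 186, 194 and 180 CPM after the MWM. In RNA-Seq 2 it was at 125, 116 and 112 CPM in the homecage libraries and at 128, 113, 114 and 113 CPM after CFC. Only homecage libraries 1 and 2 of RNA-Seq 1 stood above the trained mice, and the ranges overlapped in both datasets. The log2 fold change was -0.19 ± 0.038 (edgeR with 3 RUVr factors, adjusted p = 0.0368). Among 22038 genes 0.821% passed, and 0.49% passed as lower.

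The Lhfpl4 difference was larger in RNA-Seq 1 as a point value and passed in neither dataset alone. The MWM difference was -0.41 ± 0.15 (edgeR, adjusted p = 0.325) and the CFC difference -0.01 ± 0.066 (adjusted p = 1), and these differed by -0.40 ± 0.16 (adjusted p = 0.542). With GC normalization the pooled difference was -0.14 ± 0.035 (adjusted p = 0.137 by edgeR), and without RUVr factors -0.20 (adjusted p = 0.607), under which 0.0408% of genes passed at adjusted p and 8.56% at unadjusted p under 0.05, and 3 of the 25 members, 2 higher and 1 lower, were under that unadjusted threshold. The call was lost on leaving out WT homecage library 1 or 2 or any MWM library of RNA-Seq 1, or homecage library 1 or CFC library 3 or 4 of RNA-Seq 2, with edgeR adjusted p from 0.0684 to 0.275. Without WT homecage library 3 of RNA-Seq 1 the difference was -0.26 ± 0.040 (adjusted p = 0.00394).

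WT homecage library 3 of RNA-Seq 1 stood apart in several members. Slc6a11 was at 296, 277 and 179 CPM in the homecage libraries and 201, 203 and 195 CPM after the MWM. Slc12a5 was at 1564, 1589 and 1010 CPM and then 1243, 1321 and 1119 CPM. Gabbr1 was at 1936, 1957 and 1504 CPM and then 1727, 1591 and 1604 CPM, and Nlgn2 at 364, 404 and 245 CPM and then 279, 350 and 268 CPM. In each of these homecage library 3 was the lowest of the 6, and the other 2 homecage libraries were the highest. Its choroid plexus sum was 1793 CPM, against 142 and 157 CPM in the other 2 homecage libraries and 197 to 1777 CPM after the MWM. Its CA1 pyramidal cell sum, 617 CPM, was the lowest of RNA-Seq 1, against 704 to 1139 CPM in the others. Over all genes the chi-square per gene was 91.4 and 80.6 between it and the other 2 homecage libraries, and 16.2 between those. Without homecage library 3, 7 members passed in learning against homecage, when 10.9% of all genes did. Lhfpl4, Slc6a11 (-0.24 ± 0.035), Slc12a5 (-0.19 ± 0.030), Nlgn2 and Gabbr1 were lower, and Gabrb1 and Slc12a2 higher. The part of this library's composition was not tested.

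Among the members named by the lowest p in each direction, Slc6a11 differed by -0.16 ± 0.035 (adjusted p = 0.0544 by edgeR) and Slc12a5 by -0.10 ± 0.031 (adjusted p = 0.123). Gabrb1, a beta subunit, differed by 0.12 ± 0.036 (adjusted p = 0.117), Gabra5 by 0.15 ± 0.049 (adjusted p = 0.137) and Gabre by 0.72 ± 0.27 (adjusted p = 0.187), all by edgeR. With GC normalization Slc6a11 differed by -0.12 (adjusted p = 0.238), Slc12a5 by -0.0052 (adjusted p = 0.962), Gabrb1 by 0.06 (adjusted p = 0.608), Gabra5 by 0.09 (adjusted p = 0.425) and Gabre by 0.80 (adjusted p = 0.254) in the same test. Gabra5 was at 87.1, 75.8 and 83.9 CPM in the homecage libraries of RNA-Seq 1 and at 95.2, 105 and 99.3 CPM after the MWM, with no overlap. In RNA-Seq 2 it was at 194, 193 and 188 CPM and at 196, 182, 202 and 202 CPM, with overlap. Gabre was under 1 CPM in every library, and its values rest on 4 to 16 counts per WT homecage library of RNA-Seq 2.

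At an unadjusted p under 0.05, 8 of 25 members passed, 3 higher and 5 lower, beside 18.3% of all genes, and the members' median was -0.02 beside -0.03 for all genes. Slc32a1 differed by -0.20 ± 0.089 and was at 101, 64.0 and 56.1 CPM in the homecage libraries and 60.0, 58.3 and 49.7 CPM after the MWM. The library at 101 CPM also had the highest sum of 3 thalamus markers of RNA-Seq 1, 93.8 CPM against 26.3 to 73.3 CPM in the others. Of the 7 choroid plexus markers, 7 were higher after learning at an unadjusted p under 0.05 and 1, Aqp1, passed. Without RUVr factors 0 of the 7 did either, as in the MWM or CFC alone. The rho of fold change and GC content was -0.50 over the members and -0.21 over 21977 genes.

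Within each paradigm no member passed by edgeR. In the MWM in WT mice 0 of 24 passed, beside 0.0135% of all genes, and 7 of 24 did so at an unadjusted p under 0.05, beside 11.4%. Those were Gabra5 and Gabra3 higher and Lhfpl4, Slc6a13, Gabrd, Slc6a11 and Slc32a1 lower, chosen here after their values were seen. Beside Gabrd, which marks dentate granule cells, 4 of 5 dentate granule cell markers were lower at an unadjusted p under 0.05, with a median of -0.36 and sums of 412 to 455 CPM in homecage and 308 to 328 CPM after the MWM, and their part in its value was not tested. The median was -0.25 for the 10 members tested at or above 50% GC and -0.01 for the 14 below it, against -0.13 and -0.01 over all genes. Without WT homecage library 3 of RNA-Seq 1, 6 members passed, when 10.8% of all genes did. In CFC in WT mice 0 of 25 passed, beside 0% of all genes, and 0 of 25 at an unadjusted p under 0.05, beside 2.73%. The median absolute log2 fold change of the members in CFC was 0.04, beside 0.07 for all genes. DESeq2 called 0 members in either.

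Learning and homecage were also compared in CBP KIX/KIX mice, in CFC. For CFC against homecage, in WT and in CBP KIX/KIX mice, the values given are from fits that do not pair libraries by replicate number. By edgeR 0 of 25 members passed, beside 0% of all genes, and 4 of 25 did so at an unadjusted p under 0.05, beside 13%. DESeq2 called 1, Gphn, when 300 of 18851 genes passed. Gphn was at 73.4, 74.7, 73.8 and 73.1 CPM after CFC and 77.5, 80.1, 86.1 and 94.4 CPM in homecage CBP KIX/KIX libraries, with no overlap, and differed by -0.19 ± 0.052 (edgeR, adjusted p = 0.165). In WT mice Gphn was at 76.5, 75.6 and 81.0 CPM in homecage and 74.4 to 80.4 CPM after CFC. Gabrb1 was lower after CFC by -0.24 ± 0.086 as a point value (adjusted p = 0.249), and Gabrd was at 26.5, 32.5, 23.1 and 24.7 CPM after CFC and 29.3, 20.3, 14.96 and 13.4 CPM in homecage libraries.

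Homecage libraries 3 and 4 of the CBP KIX/KIX mice, both among the shallower libraries of RNA-Seq 2 (16567226 and 15940061 counts), stood apart. Their astrocyte marker sums were 4316 and 5198 CPM, against 3195 to 3715 CPM in the other 13 libraries of RNA-Seq 2. Library 4 had the highest Gad2 of the dataset, 238 CPM against 127 to 158 CPM elsewhere, the highest Gad1, 409 CPM, the highest Gabra4, 137 CPM, and the highest Gabrb1, 210 CPM. It had the lowest Slc12a5, 436 CPM, and the lowest Gabrd, 13.4 CPM. Leaving out homecage library 1 instead gave 3 calls in CFC against homecage, Gabrb1, Gabrd and Gphn, when 5.32% of all genes passed. Without homecage library 4 none of these passed by edgeR, with Gabrb1 at -0.16 (adjusted p = 0.532), Gabrd at 0.30 and Gphn at -0.14 (adjusted p = 0.349), and 0% of all genes did. The part of these libraries' composition in the values was not tested.

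Between CBP KIX/KIX and WT homecage mice 0 of 25 members passed by edgeR, beside 0.0107% of all genes, and DESeq2 called 0. At an unadjusted p under 0.05, 2 of 25 did, Gabre and Gabrb1, both higher, beside 6.17% of all genes. Gabrb1 was at 147, 140 and 161 CPM in WT and 146, 171, 184 and 210 CPM in CBP KIX/KIX libraries. The difference of 0.25 ± 0.11 had an adjusted p of 0.785 by edgeR, and the ranges overlapped. These libraries are few, and a difference above the error given here can still fail to pass. The Gabrb1 difference was 0.17 ± 0.087 without CBP KIX/KIX homecage library 4 and 0.33 ± 0.083 without library 1. With GC normalization it was 0.18 ± 0.086. The astrocyte marker sums of the CBP KIX/KIX libraries were 3415, 3715, 4316 and 5198 CPM, in the order of the Gabrb1 values above. Their part in the Gabrb1 difference was not tested.

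Genotype within each paradigm gave no member by edgeR and none by DESeq2. After the MWM 0 of 24 passed, beside 0% of all genes, and 1 of 24, Gabra4, at an unadjusted p under 0.05, beside 5.89%. After CFC 0 of 25 passed, beside 0.0106%, and 1 of 25, Abat, at an unadjusted p under 0.05, beside 2.64%. The difference of the genotype effect between CFC and homecage gave 0 of 25, beside 0%, and 3 of 25 at an unadjusted p under 0.05, beside 4.92%. The difference between paradigms gave 0 of 25 for genotype, beside 0%, and 2 of 25 at an unadjusted p under 0.05, beside 3.79%. For learning in WT it gave 0 of 25, beside 0%, and 3 of 25 at an unadjusted p under 0.05, beside 8%. DESeq2 called 0 members in these 3 comparisons.

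The other genes of the pathway came from 2 lists. Of 18 partners of GABA receptors and inhibitory synapses, 0 passed after learning by genotype in edgeR, beside 2.41% of all genes, with 3 higher and 1 lower at an unadjusted p under 0.05, beside 18.7%, and a median of -0.01. The lowest p was that of Iqsec3, a gephyrin-binding exchange factor, at -0.11 ± 0.030 (adjusted p = 0.0578 by edgeR). Of 10 genes of GABA supply and chloride regulation, 1 passed, Maob, a monoamine oxidase of astrocytes that takes part in making GABA from putrescine, which was higher by 0.21 ± 0.049 (adjusted p = 0.0338 by edgeR). Without RUVr factors Maob did not pass (0.21, adjusted p = 0.468 by edgeR). With learning in WT mice 0 of 18 and 0 of 10 passed by edgeR, beside 0.821% of all genes, with 5 and 3 at an unadjusted p under 0.05, beside 18.3%.

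Between the datasets the median absolute log2 difference of the members was 0.69, beside 0.77 for all genes, against 0.15 or less for the members in the comparisons of training and genotype. In WT homecage libraries 19 of 25 members differed between RNA-Seq 1 and RNA-Seq 2 by edgeR, 10 higher and 9 lower in RNA-Seq 1, when 72.5% of 22408 genes did, 40.1% as higher and 32.4% as lower. RNA selection, sequencing run and cohort of mice all changed between the datasets and cannot be told apart. Log2 values below are RNA-Seq 1 minus RNA-Seq 2, and the CPM values are those of the 3 homecage libraries of RNA-Seq 1 and then of RNA-Seq 2.

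Alpha subunits were lower in RNA-Seq 1. Gabra3 was at 13.4, 18.9 and 20.3 CPM and then 73.0, 71.1 and 72.6 CPM, a log2 difference of -2.04 ± 0.18. Gabra5 was at 87.1, 75.8 and 83.9 CPM and then 194, 193 and 188 CPM, or -1.22 ± 0.085. Gabra2 was at 36.4, 40.0 and 48.2 CPM and then 88.9, 90.6 and 99.2 CPM, or -1.16 ± 0.15, and Gabra4 at 63.5, 55.0 and 67.2 CPM and then 99.1, 95.3 and 97.4 CPM, or -0.65 ± 0.091. None of these ranges overlapped.

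The beta subunits went opposite ways. Gabrb1 was at 97.0, 98.3 and 128 CPM and then 147, 140 and 161 CPM, or -0.47 ± 0.12. Gabrb2 was at 102, 111 and 132 CPM and then 37.3, 27.1 and 34.2 CPM, or 1.81 ± 0.22. Gabrd was higher, at 65.1, 65.7 and 52.8 CPM and then 24.6, 23.6 and 19.4 CPM, or 1.43 ± 0.20. Gabrg1 was lower, at 8.93, 7.46 and 12.5 CPM and then 19.8, 17.9 and 20.6 CPM, or -0.996 ± 0.17, and its cluster neighbours Gabra2, Gabra4 and Gabrb1 were lower too. Gabrg3 was at 23.4, 24.0 and 27.6 CPM and then 19.4, 15.9 and 17.7 CPM, or 0.50 ± 0.10, while its neighbour Gabra5 was lower. Gabrq was at 0.392, 0.427 and 0.340 CPM and then 0.773, 1.07 and 0.523 CPM, or -1.17 ± 0.51 (adjusted p = 0.0427 by edgeR).

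The GABA-B subunits were higher in RNA-Seq 1. Gabbr1 was at 1936, 1957 and 1504 CPM and then 674, 681 and 633 CPM, or 1.44 ± 0.079, and Gabbr2 at 484, 501 and 419 CPM and then 311, 306 and 319 CPM, or 0.59 ± 0.077. Slc12a5 was at 1564, 1589 and 1010 CPM and then 619, 530 and 565 CPM, or 1.28 ± 0.13. Slc12a2 was at 76.6, 69.9 and 121 CPM and then 58.9, 63.7 and 63.5 CPM, or 0.53 ± 0.20 (adjusted p = 0.0237 by edgeR), and lost the call without homecage library 3 of RNA-Seq 1 (0.24, adjusted p = 0.282). Slc6a11 was at 296, 277 and 179 CPM and then 132, 141 and 119 CPM, or 0.94 ± 0.12.

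Of the synaptic partners, Lhfpl4 was at 302, 261 and 181 CPM and then 125, 116 and 112 CPM, or 1.08 ± 0.12. Nlgn2 was at 364, 404 and 245 CPM and then 271, 241 and 230 CPM, or 0.45 ± 0.13 (adjusted p = 0.00432 by edgeR), with overlapping ranges. Gphn was lower, at 56.8, 53.8 and 62.2 CPM and then 76.5, 75.6 and 81.0 CPM, or -0.43 ± 0.074. Gad2 was at 103, 69.8 and 101 CPM and then 152, 132 and 150 CPM, or -0.66 ± 0.17. Gad1, Slc32a1, Slc6a13, Abat, Aldh5a1 and Gabre did not pass, with differences of -0.15 ± 0.085, 0.29 ± 0.15, 0.72 ± 0.55, 0.05 ± 0.086, 0.13 ± 0.065 and -0.69 ± 0.63. TMM normalization moved the median of all genes by -0.11, and Gad1 then passed as lower (-0.26, adjusted p = 0.00735 by edgeR) while Slc12a2 did not (adjusted p = 0.0633).

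**Figure D4:**
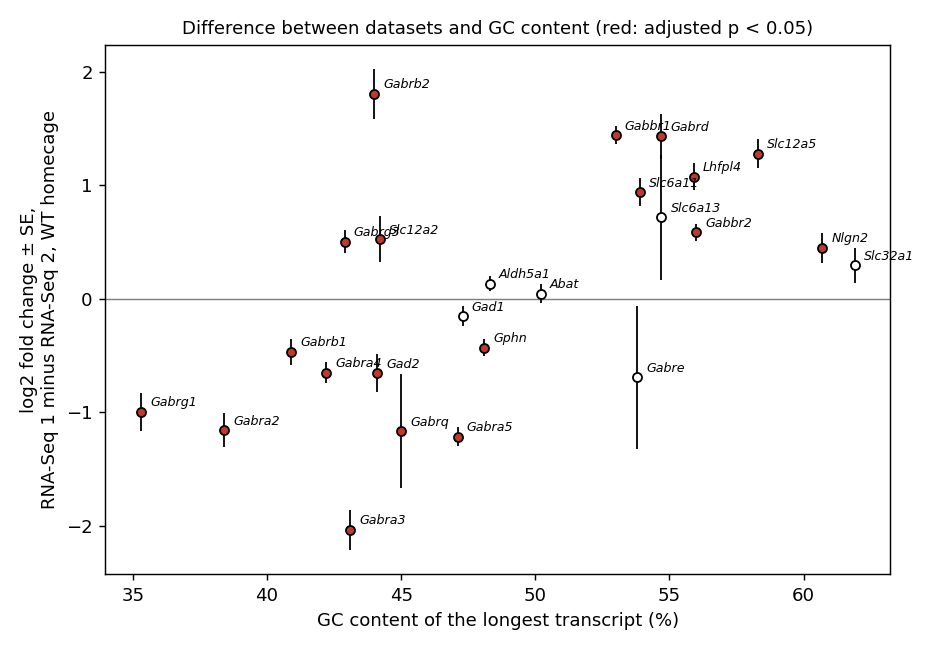
Log2 fold change with its SE of each of the 25 members tested (RNA-Seq 1 minus RNA-Seq 2, WT homecage) against the GC content of its longest transcript in percent, red for adjusted p under 0.05. Members under 50% GC lie mostly below 0, with Gabrb2, Gabrg3 and Slc12a2 as called exceptions, and those above it mostly above 0.

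The direction followed GC content in part. The 14 members under 50% GC had a median difference of -0.56 and the 11 at or above it of 0.72, beside -0.29 and 0.48 over all genes. The rho with GC content was 0.55 over the 25 members and 0.27 over 22343 genes. With GC normalization, added after this was seen, 16 members passed, 9 higher and 7 lower. Without it 72.5% of all genes passed. The share of all genes with it is not given here, so the count cannot be read as particular to the members. Gabra3 (-1.58), Gabra5 (-0.87), Gabrb2 (2.38) and Gabbr1 (1.22) passed in the same direction by edgeR, whereas Gabrb1 (0.36, adjusted p = 0.000456) and Nlgn2 (-0.41, adjusted p = 4.75e-05) changed sign, and Gabra4 (0.0791), Gabbr2 (0.05), Gad2 (-0.14) and Gabrq (-0.89, adjusted p = 0.114) did not pass. Slc32a1, not called before, then passed as lower (-0.49, adjusted p = 0.00275 by edgeR). The rest of the difference between datasets was not tested against a cause.

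Slc12a2 and Slc6a13 moved with markers of tissue around the hippocampus. In RNA-Seq 2 Slc12a2, which the choroid plexus also makes, was between 63.7 and 88.2 CPM in the libraries whose choroid plexus sum was 731 CPM or more, and between 53.0 and 63.5 CPM in those whose sum was 217 CPM or less. In RNA-Seq 1 its highest values, 121 and 125 CPM, were in libraries with sums of 1793 and 2916 CPM, and a library with a sum of 1777 CPM was at 83.4 CPM. Slc6a13, the GABA transporter GAT2 of the meninges, was at 3.77, 25.5 and 3.02 CPM in the WT homecage libraries of RNA-Seq 2, and the meninges and vessel sums of these libraries were 127, 229 and 114 CPM. In the homecage CBP KIX/KIX libraries it was at 3.97, 12.4, 4.24 and 4.48 CPM, with sums of 118, 224, 171 and 172 CPM. The part of this tissue in the Slc12a2 and Slc6a13 differences was not tested.

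**Figure D5:**
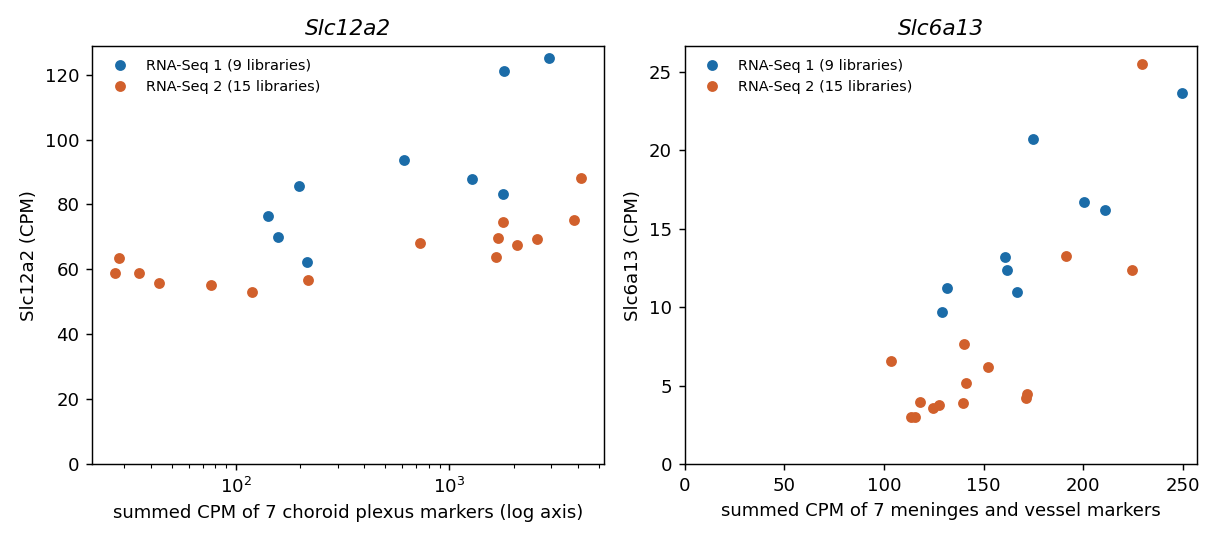
Left, Slc12a2 (CPM) against the summed CPM of 7 choroid plexus markers (log axis), and right, Slc6a13 (CPM) against the summed CPM of 7 meninges and vessel markers, in each of the 9 RNA-Seq 1 and 15 RNA-Seq 2 libraries. The highest Slc12a2 of RNA-Seq 2, 88.2 CPM, is in the library with the highest choroid plexus sum, 4127 CPM, and the highest Slc6a13, 25.5 CPM, is at a meninges sum of 229 CPM.

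The highest library was under 1.5 times the lowest for 16 of 26 members in RNA-Seq 2 and 10 of 26 in RNA-Seq 1. In RNA-Seq 2 the highest library exceeded the lowest 1.12-fold for Gabbr1, 1.16-fold for Lhfpl4, 1.20-fold for Gabra2 and 1.20-fold for Aldh5a1. The widest spreads of members above 1 CPM there were those of Slc6a13 at 8.50-fold, Gabrb2 at 2.55-fold and Gabrd at 2.42-fold. In RNA-Seq 1 Gad1 varied 1.15-fold and Aldh5a1 1.18-fold, against 2.45-fold for Slc6a13, 2.07-fold for Lhfpl4, 2.11-fold for Gabra3 and 2.04-fold for Slc32a1. Gabrb2 in RNA-Seq 2 was lowest, at 19.5 CPM, and highest, at 49.7 CPM, in libraries of the same CBP KIX/KIX CFC group.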

How the data were processed

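Per the study's methods and the submitters' processing notes, reads were aligned with STAR and counted per gene with featureCounts (version 1.4.4), and the authors deposited raw counts with no scaling; the notes also name SAMtools 1.6. The strand setting and annotation release are not given in the sources used here. Of 51826 gene identifiers, 51633 were found in GENCODE M21 (GRCm38), 47648 with the same version, which gave symbols, exon length and the GC content of the longest transcript.

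Counts were filtered with filterByExpr, scaled by the upper quartile and tested with the quasi-likelihood test of edgeR 4.0.16 in R 4.3.3, with Benjamini-Hochberg adjustment over all genes tested and a threshold of 0.05. Pooled comparisons had the dataset as covariate, with 4 RUVr factors for genotype after learning and 3 for learning in WT mice. Comparisons within a dataset were fitted over all its groups with no factors, except genotype in homecage, which used its 2 groups. Alternatives were TMM, DESeq2 1.42.0, no filter, other numbers of factors, a replicate block, GC normalization in 10 bins and leaving out each library. No 2 libraries of a group differed by as little as counting noise (lowest chi-square per gene 2.74). The fits of some comparisons were run on simulated data with large changes and no hidden variation. That run does not cover differences as small as those called here, or hidden variation between libraries. Replicate numbers were taken to pair libraries where every same-numbered pair had r over 0.1 in its deviations from the group means. This held in 2 comparisons, CFC against homecage in WT (r 0.189 to 0.375 over 3 pairs) and in CBP KIX/KIX mice (r 0.146 to 0.248 over 4 pairs). P-values measure the spread between the libraries of a group, taken as separate mice. In the 2 pooled comparisons with RUVr factors they measure only the spread left after those factors, which were estimated from the same libraries.

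Members and gene lists were chosen with earlier results of these data known. Any member could be named with its level, and named for a comparison were members with adjusted p under 0.05 and, in the 2 pooled comparisons, the 3 with the lowest p in each direction. Other members were chosen after their values were seen. Other genes of these families were not analysed here.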

Additional observations from a re-analysis of the deposited data

Results flagged for a closer look

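In groups of 4 libraries, 6 of 75 member and group pairs held a library whose gap to its nearest neighbour took up nearly the whole range of the group on the log2 scale, where chance flags about 1 in 20. WT CFC library 1 was the highest of its group in 3 of them. Gabrg3 was at 20.1 CPM there against 16.7 to 17.1 CPM in the others, Lhfpl4 at 128.4 CPM against 112.8 to 113.6 CPM, and Nlgn2 at 269.5 CPM against 238 to 242 CPM. The choroid plexus sum of this library was 35.1 CPM, and that of the other 3 WT CFC libraries was 1695 to 4127 CPM. Gabra4 was at 105.1 CPM in CBP KIX/KIX CFC library 2 against 97.5 to 98.4 CPM in the others. Slc32a1 was at 64.9 CPM in CBP KIX/KIX homecage library 4 against 55.1 to 56.2 CPM, and Slc6a13 at 12.4 CPM in CBP KIX/KIX homecage library 2 against 3.97 to 4.48 CPM. No interaction passed for any member by edgeR, where 3, 2 and 3 of 25 members had an unadjusted p under 0.05 and DESeq2 called 0.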

How the results depend on the processing

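The 1 member called for genotype after learning became 3 with DESeq2 (Abat, Nlgn2 and Lhfpl4), when 884 of 21489 genes passed. The count was 0 without RUVr factors, when 5 of 21489 genes passed, and 0 with 2 of them, when 151 did. On leaving out a library it ranged from 1 to 2, with 2 where 444 of 21918 to 903 of 21573 genes passed. For learning in WT mice the 1 call became 4 with DESeq2 (Gabra5, Gabrb1, Slc6a11 and Lhfpl4), when 749 of 22038 genes passed. The count was 0 with TMM, no filter, no RUVr factors or GC normalization, when 139, 64, 9 and 57 of all genes passed, in that order. On leaving out a library it ranged from 0 to 7, with 7 when 2452 of 22494 genes passed. For fear conditioning in CBP KIX/KIX mice DESeq2 gave 1, when 300 of 18851 genes passed. On leaving out a library, that comparison ranged from 0 to 3 (3 without homecage library 1), the water maze in WT mice from 0 to 6 and its difference from fear conditioning from 0 to 2 (6 and 2 without WT homecage library 3 of RNA-Seq 1). At these highest counts 976 of 18332, 2433 of 22563 and 629 of 22665 genes passed. Between the datasets GC normalization, added after the data were seen, turned Gabra4 (0.0791), Gabrb1 (0.36), Nlgn2 (-0.41) and Slc32a1 (-0.49). Gad1 (0.10) and Abat (-0.06) also changed sign and passed neither before nor after. The cause of these shifts was not tested. Of 191 counts recomputed over all comparisons, 160 stayed within 1.5 times the count reported. Counts of 0 that stayed at 0 are among these, and those of the 2 pooled comparisons often moved, as given above.

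Replicate numbers are shared between groups. In CFC against homecage, in WT and in CBP KIX/KIX mice, same-numbered libraries deviated together, and the block left both counts of members at 0, also with GC normalization, a combination added after the data were seen. In the other comparisons not every pair had r over 0.1, and the numbers were not taken as pairs. Same-numbered pairs had r of 0.1 to 0.183 in the MWM against homecage in WT and 0.066 to 0.242 for genotype in homecage. For genotype it was -0.158 to -0.015 after the MWM and -0.09 to 0.377 after CFC. The mean r was -0.02 over all 9 pairs of RNA-Seq 1 and 0.17 over all 21 of RNA-Seq 2. With the replicate block 7 members passed for genotype after learning, when 2402 of 21489 genes did. Gabra2 and Gabra4 were higher, and Abat, Lhfpl4, Nlgn2, Gabbr1 and Slc12a5 lower. For learning in WT mice 2 passed (Lhfpl4 and Slc6a11, both lower), when 453 of 22038 genes did. With the block but no RUVr factors 0 and 0 members passed, beside 9 and 14 of all genes.

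Levels under about 1 CPM (Gabra6, Gabre and Gabrq) rest on few counts, and groups of 3 or 4 libraries leave small differences undetected.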
